A study of Mus musculus with 2 samples.

Results

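The cells described here are the tumour-like cells of mouse G422 glioma with the highest summed signal of 7 genes, Scx, Crabp2, Cav1, Lgals7, S100a4, Ahnak2 and Ahnak. Tumour-like cells were barcodes with at least 10000 UMIs, at most 15% mitochondrially encoded UMIs, at most 1 Ptprc UMI, at most 10 UMIs of C1qa, C1qb and C1qc together, at most 2 of Cldn5, Flt1 and Pecam1 together, and at least 20 of Vim. Each was scored by the mean of ln(1 + UMIs per 10000) over the 7 genes, and the top 10% with both libraries pooled were taken as members. This gave 511 members among 5103 tumour-like cells, out of 7954 barcodes with at least 10000 UMIs in the series. Of these members, 185 came from the LTS library and 326 from the control library. The remaining 4592 tumour-like cells, 1204 LTS and 3388 control, are called the others.

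The LTS library came from Kunming mice that survived over 100 days after combined therapy of a brain G422 tumour, received tumour cells again on the opposite side and, per the series' design text, outlived that by over 100 days as well. The control library came from untreated Kunming mice with a first G422 tumour in the brain, harvested at day 7. LTS brains were likewise taken at day 7 after an inoculation, and the sources used here do not make clear which one. G422 is a mouse glioma line (G422TN in the design text). The number of animals per library, their age and sex, and the agents of the therapy are not given in the sources used here. In both, dissociated brain was layered on Percoll and the interphase between 70% and 37% was kept, a fraction the labels describe as holding immune cells, so the tumour cells sampled are those found in it. There was 1 library per group. No difference between the libraries or between groups of cells has a replicate check, no p-value is given, and library and treatment cannot be told apart. All intervals are 95% intervals of counting error only.

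Scx encodes scleraxis, a basic helix-loop-helix transcription factor known from tendon and ligament precursors, where it drives collagen genes. Crabp2 carries retinoic acid to its nuclear receptors, and Cav1 is the scaffold of caveolae, small pits of the plasma membrane. Lgals7 is a galectin known mostly from stratified epithelium, S100a4 is a calcium-binding protein linked to motile mesenchymal cells, and Ahnak and Ahnak2 are giant scaffold proteins under the plasma membrane. Such a set of genes in a brain tumour is mesenchymal rather than glial in character, and mesenchymal gene programmes are a known feature of glioblastoma.

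By score, the members were the upper tail of 1 continuous distribution. No clustering was run, so whether they form a separate cluster by other genes was not tested. The score had a median of 1.00 in LTS and 0.940 in control tumour-like cells, and the limit for members was 1.3468. The last member, a LTS cell, scored 1.3468, and the first cell outside, also from LTS, scored 1.34588. Within 0.05 of the limit there were 329 cells. By choice of the rule, 13.3% of LTS (11.6 to 15.2%) and 8.78% of control tumour-like cells (7.89 to 9.73%) were members. Depth differed between the libraries, and the size of this gap moved with the way depth was handled. The part of depth in it was not tested, and thinning to 10000 UMIs also chose the members anew (375 of 511 kept). After every cell was thinned to 10000 UMIs the shares were 11.3% in LTS (9.69 to 13.1%) and 9.53% in control (8.61 to 10.5%), with intervals that overlap, whereas among cells of at least 20000 UMIs they were 16.5% and 5.54%.

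**Figure D1:**
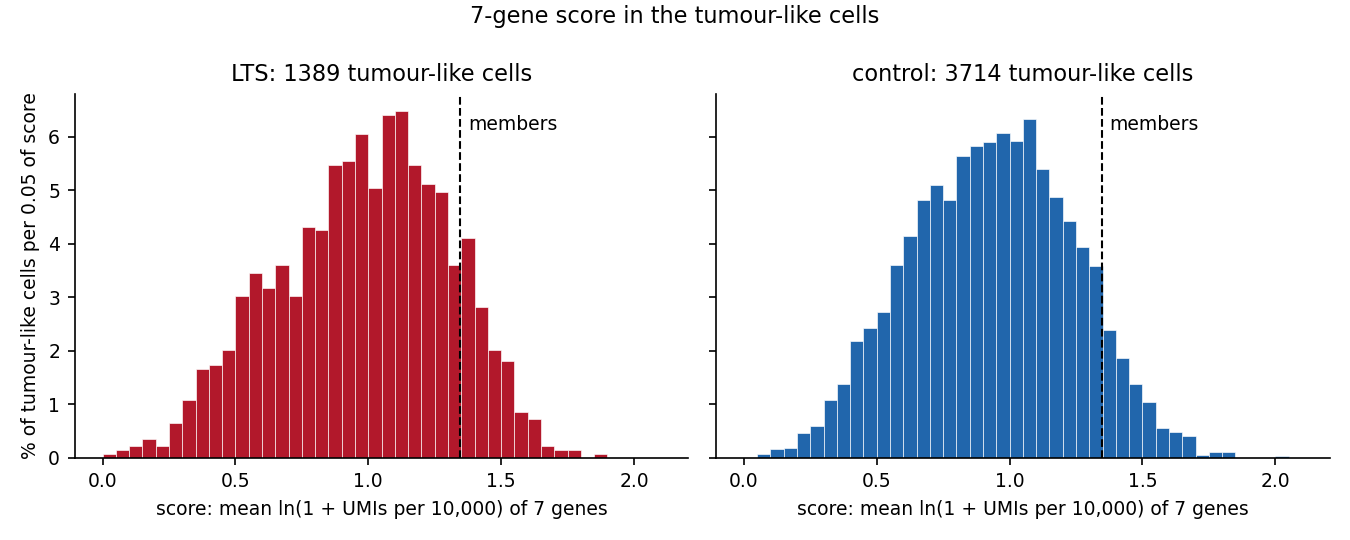
Distribution of the 7-gene score in the tumour-like cells of the LTS library (left, 1389 cells) and of the control library (right, 3714 cells). Bars give the percentage of cells per 0.05 of score and the dashed line is the limit of 1.3468 above which cells are members. In both libraries the members are the right-hand flank of 1 broad hump, with no gap at the limit.

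Members carried fewer UMIs per cell than the others. Their median was 32549 UMIs in LTS, against 38204.5 in the other LTS cells, and 16163.5 in control, against 20333 in the other control cells. Their median mitochondrial share was 6.25% against 5.63% in LTS and 6.37% against 5.62% in control. No barcode was shared between the LTS and control members, and 1 was shared between all tumour-like cells. The limit on endothelial genes needs a word of caution, because it removed 1045 LTS and 1152 control barcodes, 997 and 1072 of them for Flt1 alone. Those cells had median depths of 48306 UMIs in LTS and 25283 in control, Y-linked levels like those of the kept cells (0.889 and 1.21 CPM), and lower scores (median 0.839 in LTS and 0.822 in control). With a limit on Cldn5 and Pecam1 only, members made up 11.2% of LTS (9.99 to 12.6%) and 9.40% of control tumour-like cells (8.59 to 10.3%).

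Markers of host immune cells were scarce in the members, and Vim, which the rule requires, was abundant. Levels are given as CPM, the gene's UMIs summed over a group of cells of 1 library and scaled to that group's total UMIs. The 4 Y-linked genes Ddx3y, Eif2s3y, Kdm5d and Uty summed to 0.472 CPM in LTS members and 0.532 CPM in control members (3 UMIs in each), against 134 and 108 CPM in the microglia-like barcodes of the same libraries, which numbered 628 and 712. These microglia-like barcodes had at least 1000 UMIs, over 10 UMIs of C1qa, C1qb and C1qc, at least 1 of Ptprc and under 20 of Vim. The intermediate filament gene Vim stood at 5109 CPM in LTS members and 5748 CPM in control members. The pan-leukocyte gene Ptprc, which the rule limits, was at 1.42 and 1.06 CPM. Of the glial lineage factors, Sox9 was present at 163 CPM in both sets of members, while Olig2 and Sox10 had no UMI in either. A count of 0 there allows up to 0.472 CPM in LTS and 0.532 CPM in control members. The astrocyte filament gene Gfap was at 0.629 CPM in LTS members and had no UMI in control members. Sox2 stood at 23.9 CPM in LTS members and 20.6 CPM in control members, and Nes at 76.3 and 92.1 CPM. The glial identity list summed to 504 CPM in LTS members and 500 CPM in control members, against 475 and 484 CPM in the others.

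Markers of tendon cells and fibroblasts were present in members only in part. Mkx, a tendon homeobox factor, had no UMI in members, and Tnmd, which encodes the late tendon protein tenomodulin, was at 0.629 CPM in LTS members and 0.710 CPM in control members, against 0.518 and 0.547 CPM in the others. Col1a1, 1 of the 2 chains of type I collagen, stood at 217 CPM in LTS members and 173 CPM in control members. Its partner chain Col1a2 was at 1.42 and 0.887 CPM. Of the meningeal fibroblast markers, Dcn stood at 491 CPM in LTS members and 486 CPM in control members, against 404 and 392 CPM in the others. Lum was at 131 CPM in both sets of members, against 109 and 103 CPM in the others. The pericyte genes Rgs5 and Des stayed under 0.4 CPM in members of both libraries, while Pdgfrb and Anpep of the same list were higher in members and the list summed to 219 CPM in LTS members and 217 CPM in control members, against 134 and 125 CPM in the others. Of the 11 endothelial, 9 T cell, 11 oligodendrocyte and neuron and 10 choroid plexus markers in the files, none reached 20 CPM in both libraries in either group of cells, and the endothelial list summed to 28.2 CPM in LTS members and 45.1 CPM in control members, against 30.1 and 51.4 CPM in the others. The microglia and macrophage list summed to 151 CPM in LTS members and 272 CPM in control members, against 129 and 248 CPM in the others. The rule limits Cldn5, Flt1 and Pecam1 of the endothelial list and C1qa, C1qb and C1qc of the microglia list to fixed UMIs per cell. The sums of both lists are therefore limited by the rule, at a lower CPM in the deeper LTS cells.

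The 7 genes that chose the members are given as a description, since their levels follow from the rule. Scx (chr15:76457452-76459458, plus strand, mm10) averaged 391 CPM in LTS members against 146 CPM in the other LTS cells, and 366 CPM in control members against 129 CPM in the other control cells. Crabp2 (chr3:87948666-87953376, plus strand) stood at 371 against 166 CPM in LTS and 357 against 154 CPM in control. S100a4 was the most abundant of them, at 1638 against 664 CPM in LTS and 1554 against 634 CPM in control. Ahnak reached 694 against 369 CPM in LTS and 761 against 407 CPM in control, and Ahnak2 reached 109 against 57.8 CPM and 143 against 58.8 CPM. Cav1 stood at 175 against 70.6 CPM in LTS and 184 against 61.9 CPM in control, and Lgals7 at 206 against 92.6 CPM and 216 against 85.5 CPM.

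None of the 7 genes was private to the members. A Scx UMI was found in 99.5% of LTS members and 87.2% of the other LTS cells, and in 98.2% of control members and 77.7% of the other control cells. In microglia-like barcodes, which should lack Scx, a Scx UMI turned up in 5.57% of LTS barcodes (median depth 7458.5 UMIs) and 9.55% of control barcodes (median depth 5364.5 UMIs). With each tumour-like cell thinned to 10000 UMIs, Scx was seen in 91.4% of members against 64.5% of others in LTS, and in 92.9% against 60.7% in control. Members with all 7 genes above the library's median were 9.19% in LTS and 14.7% in control, against 0.748% and 0.443% of the others.

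The levels of the 7 genes were also read on UMIs that had not been used to choose the cells. The cells were still chosen on the same 7 genes, so higher levels follow from the rule here too and are a description. The UMIs of each cell were split at random in 2, with members chosen on 1 share and levels read on the other. Scx was then 2.45-fold (2.30 to 2.62) higher in LTS members and 2.35-fold (2.18 to 2.52) higher in control members. Scx had the highest ratio of the 7 genes in both libraries, but its intervals overlapped those of S100a4. S100a4 was at 2.41-fold (2.34 to 2.49) in LTS and 2.23-fold (2.16 to 2.31) in control. The lowest ratios were 1.65-fold for Ahnak2 in LTS (1.46 to 1.86) and 1.59-fold for Ahnak in control (1.51 to 1.66). The members as defined above, chosen and read on the same UMIs, had 2.68-fold and 2.84-fold more Scx than the others; they were also chosen on more UMIs per cell, so the part of shared counts was not tested. Of 511 cells chosen on 1 share, 241 (47.2%) were chosen on the other as well, with 60.7% in LTS (116 of 191) and 39.1% in control (125 of 320). When each gene was left out of the score and read in members chosen on the other 6, the ratio ran from 1.26-fold for Lgals7 in LTS (1.17 to 1.36) to 1.91-fold for Cav1 in control (1.77 to 2.07). Scx stood at 1.76-fold (1.66 to 1.85) in LTS and 1.82-fold (1.72 to 1.93) in control by that measure. Pair by pair the genes were only loosely tied across cells, with Spearman coefficients of 0.194 in LTS and 0.169 in control for Scx and Crabp2. Coefficients were lowest for Crabp2 and Lgals7, at 0.0018 in LTS and 0.043 in control. They were highest for Cav1 and S100a4 in LTS (0.288) and for Scx and S100a4 in control (0.249).

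Outside the rule genes, 5645 of 6464 genes had ratios of members over others of the same sign in both libraries. These are the genes with at least 20 CPM, and of them 140 genes (2.17%) were at least 1.5-fold higher in members in both libraries and 197 (3.05%) at least 1.5-fold lower. Within LTS alone 188 genes (2.91%) were higher and 310 (4.80%) lower, and within control alone 191 (2.95%) and 258 (3.99%). No gene passed 1.5-fold in opposite directions. Ratios are log2 of CPM plus 5, so they understate the change of low genes. The members were chosen on the same cells, and these counts are therefore a description. Members and others also differed in depth and in cell cycle scores, and the counts were smaller where these were matched or restricted. With the others weighted to the members' distribution of UMIs, 28 genes were higher and 69 lower. Cells in the lower 50% of both the mitosis and DNA synthesis list scores made up 65.9% of LTS members and 35.0% of the other LTS cells, and 59.8% of control members and 29.1% of the other control cells. Among such low-cycling cells alone, 544 in LTS and 1182 in control, 9 genes were higher and 26 lower. The fewer cells and the cell cycle cannot be told apart there. Named by rule were 15 higher and 10 lower genes, chosen as those furthest apart in both libraries. Their sizes varied over 16 alternative settings in both directions, for Maf between mean log2 ratios of 0.36 and 1.43 and for Hbegf between -1.62 and -0.88.

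**Figure D2:**
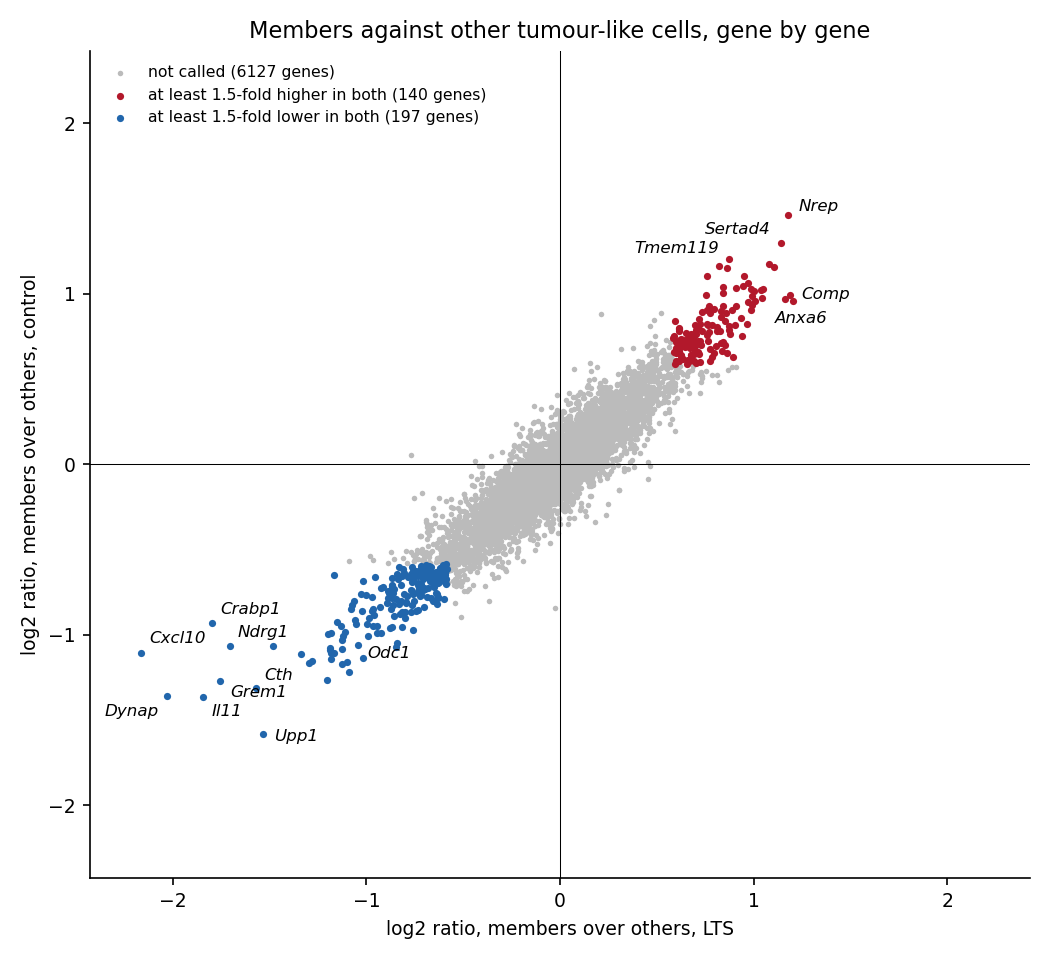
Log2 ratios of members over the other tumour-like cells, LTS on the x axis and control on the y axis, for 6464 genes with the 7 rule genes left out. Red points are the 140 genes at least 1.5-fold higher in both libraries and blue points the 197 genes at least 1.5-fold lower. The points lie along the diagonal, and the low end reaches further out than the high end.

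Nrep, which encodes a small protein first described in regenerating neurons, had the highest ratio in control among the named genes. It stood at 70.8 CPM in LTS members against 28.5 CPM in the other LTS cells, a 2.48-fold difference (2.23 to 2.76), and at 66.2 against 20.9 CPM in control, 3.17-fold (2.82 to 3.55). Sertad4 (chr1:192844488-192855756, minus strand) followed, at 56.5 against 22.9 CPM in LTS and 53.1 against 18.6 CPM in control. It was among the few genes still past 1.5-fold in both libraries with either correction, at mean log2 ratios of 0.98 with depth weighting and 0.81 in low-cycling cells, against 1.22 in all cells. The same held for Anxa6, a calcium-dependent membrane-binding annexin, at 95.2 against 43.6 CPM in LTS and 96.7 against 46.7 CPM in control. Its mean log2 ratio was 1.01 in all cells, 0.77 with depth weighting and 0.62 in low-cycling cells.

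Among the higher genes were the transcription factors Maf, Prrx2 and Mef2c and the signalling inhibitor Spry1. Of the 18 measured stem and mesenchymal regulators, a list without these genes, 0 were higher and 3 lower in both libraries. The median log2 ratio of that list was 0.00. Maf, a basic leucine zipper factor, stood at 101 CPM in LTS members against 45.2 CPM in the others, and at 97.4 against 40.4 CPM in control. Prrx2, a homeobox factor of limb and face mesenchyme, reached 73.3 against 34.1 CPM in LTS and 59.4 against 26.9 CPM in control. In low-cycling cells the mean log2 ratios were 0.36 for Maf and 0.22 for Prrx2, against 1.13 and 1.01 in all cells. Mef2c, a MADS-box factor of muscle and vessels, stood at 84.4 against 40.6 CPM in LTS and 85.9 against 38.5 CPM in control. Spry1, an inhibitor of receptor tyrosine kinase signalling, stood at 89.9 against 42.9 CPM in LTS and 70.1 against 31.8 CPM in control.

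Other named higher genes included some that act at the cell surface or in the matrix. Mxra8, a transmembrane immunoglobulin-domain protein, was at 71.0 against 30.4 CPM in LTS and 69.6 against 28.5 CPM in control. Emilin1, an elastic fibre glycoprotein, was at 119 against 58.5 CPM and 109 against 54.1 CPM, and Srpx2, a secreted sushi-repeat protein, at 83.9 against 41.0 CPM and 88.7 against 38.6 CPM. The semaphorin and VEGF co-receptor gene Nrp1 stood at 210 against 109 CPM in LTS and 174 against 89.2 CPM in control. Ace, which encodes angiotensin-converting enzyme, reached 145 against 70.5 CPM in LTS and 135 against 65.4 CPM in control. Gsn, the actin-severing protein gelsolin, was at 136 against 63.7 CPM in LTS and 126 against 59.6 CPM in control. Crip1, a small LIM protein, stood at 305 against 134 CPM and 245 against 123 CPM. Sesn3, a stress-induced inhibitor of mTORC1, was at 54.3 against 25.8 CPM and 52.3 against 22.7 CPM. Mean log2 ratios of these genes in all cells ran from 0.92 for Nrp1 to 1.13 for Mxra8. In low-cycling cells they were 0.55 for Mxra8, 0.39 for Emilin1, 0.29 for Srpx2 and 0.28 for Nrp1. There they were 0.53 for Ace, 0.53 for Gsn, 0.64 for Crip1 and 0.45 for Sesn3.

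**Figure D3:**
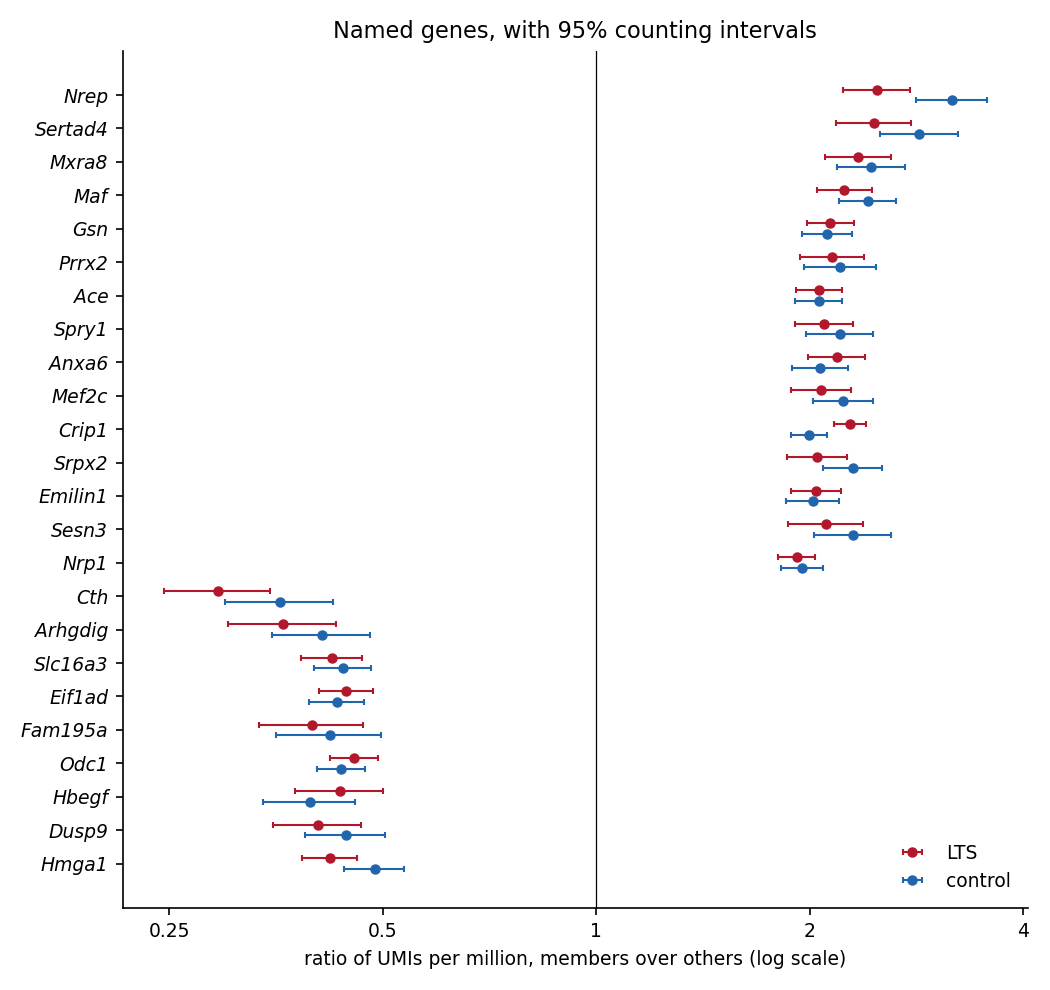
Ratio of CPM in members over the other tumour-like cells for the genes named by rule, on a log scale, LTS in red above control in blue, with 95% intervals of counting error. The 15 genes at the top lie near or above 2 and those at the bottom, from Cth down, below 0.5 in both libraries.

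Among the named genes lower in members, Cth (chr3:157894248-157925077, minus strand), the cystathionine gamma-lyase that makes cysteine, stood at 22.2 CPM in LTS members against 75.8 CPM in the others, 0.293-fold (0.246 to 0.346), and at 23.8 against 66.4 CPM in control, 0.358-fold (0.299 to 0.425). It was lower by more than 1.5-fold with either correction, at mean log2 ratios of -1.11 with depth weighting and -1.20 in low-cycling cells, against -1.44 in all cells. Odc1, the rate-limiting enzyme of polyamine synthesis, stood at 108 against 238 CPM in LTS and 116 against 266 CPM in control. Slc16a3, the lactate exporter MCT4, was at 66.7 against 158 CPM and 83.9 against 191 CPM.

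Eif1ad, related to a translation initiation factor, was at 87.7 against 197 CPM in LTS and 91.6 against 213 CPM in control. Arhgdig stood at 21.4 against 59.2 CPM in LTS and 28.7 against 70.1 CPM in control, and Fam195a at 23.1 against 58.3 CPM and 25.4 against 60.3 CPM. Dusp9, a phosphatase of ERK kinases, reached 32.6 against 80.5 CPM in LTS and 42.8 against 96.5 CPM in control. Hmga1, an architectural chromatin protein, was at 79.8 against 190 CPM in LTS and 76.8 against 158 CPM in control. The counting may split reads of Hmga1 with near-identical sequence elsewhere, so its level is uncertain.

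Larger decreases were seen in genes below 50 CPM, of which Dynap, Upp1 and Grem1 were picked after their values were seen. Dynap stood at 4.09 CPM in LTS members against 32.1 CPM in the others and at 10.3 against 34.2 CPM in control. Cxcl10, an interferon-induced chemokine, was at 3.46 against 32.9 CPM in LTS and 13.8 against 35.6 CPM in control. Upp1, a uridine phosphorylase, was at 8.03 against 32.7 CPM and 8.52 against 35.5 CPM. Grem1, a secreted antagonist of bone morphogenetic proteins, stood at 9.60 against 44.3 CPM in LTS and 15.4 against 44.2 CPM in control.

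The hypoxia-responsive gene Ndrg1 stood at 5.19 against 28.3 CPM in LTS and 10.1 against 26.6 CPM in control. Some of these low values rest on few cells: 1 cell gave 45.6% of the Il11 UMIs and 20.5% of the Cxcl10 UMIs of control members. In all, 6 higher and 20 lower genes passed 1.5-fold in both libraries in all cells, with depth weighting and in low-cycling cells. The 6 were Sertad4, Anxa6, Samd9l, Sphk1, Ckb and Dmxl1, and the 20 included Il11, Areg, Hbegf, Cxcl10, Grem1, Ndrg1, Cth, Slc7a11, Psph, Mthfd2, Mmp3, Lyar, Odc1 and Eif1ad.

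By function, genes of the extracellular matrix had the most members that were higher. Of 16 matrix and matricellular genes measured (22 listed), 7 were at least 1.5-fold higher in both libraries and 0 lower, with a median log2 ratio of 0.60 against -0.02 over all genes. Fn1, the gene of fibronectin, stood at 1071 CPM in LTS members against 698 CPM in the others and at 964 against 588 CPM in control. Mgp, the mineralisation inhibitor matrix Gla protein, was at 616 against 346 CPM in LTS and 535 against 310 CPM in control. Vcan, a large matrix proteoglycan, stood at 59.5 against 29.7 CPM and 46.0 against 28.0 CPM. Tnc, which encodes tenascin C, was at 18.4 against 24.0 CPM in LTS and 22.5 against 23.5 CPM in control.

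Of 12 collagen chain genes measured (17 listed), 3 were higher and 0 lower, with a median of 0.46. Col3a1 stood at 1278 against 809 CPM in LTS and 1171 against 720 CPM in control, and the other two were Col1a1 and Col5a1. Col6a3 was at 35.6 against 37.0 CPM in LTS and 41.0 against 41.9 CPM in control. The matrix median was 0.23 with depth weighting and 0.12 in low-cycling cells, the collagen median 0.22 and 0.11, and Mgp alone had mean log2 ratios of 0.22 and 0.10 against 0.80 in all cells.

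The list of tendon genes had 4 measured members of 14, of which Comp and Tgfbr2 were higher. Comp, a cartilage and tendon matrix protein, stood at 30.8 CPM in LTS members against 10.7 CPM in the others and at 24.5 against 9.80 CPM in control. Tgfbr2, a TGF-beta receptor, was at 57.8 against 35.4 CPM and 54.8 against 34.0 CPM. The tendon median, over those 4 genes, was 0.65 in all cells, 0.34 with depth weighting and 0.18 in low-cycling cells. The receptors of platelet-derived growth factor, known from mesenchymal and glial precursors, were higher as well. Pdgfrb stood at 76.8 against 43.5 CPM in LTS and 78.3 against 36.9 CPM in control, and Pdgfra at 95.2 against 49.8 CPM and 77.0 against 42.4 CPM. Pdgfrb was at a mean log2 ratio of 0.87 in all cells and 0.16 in low-cycling cells.

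Among the families of the rule genes, calls differed from list to list. Over all tested genes, 2.17% were at least 1.5-fold higher in both libraries and 3.05% at least 1.5-fold lower. Among 6 measured S100 genes other than S100a4, S100a13 and S100a16 passed 1.5-fold and the list median was 0.53. S100a16 stood at 64.1 against 32.7 CPM in LTS and 54.7 against 29.0 CPM in control. Of 8 measured annexins, Anxa6 and Anxa1 were higher and the median was 0.29, with Anxa1 at 849 against 548 CPM in LTS and 960 against 614 CPM in control. None of the 7 measured caveola genes other than Cav1 passed in both libraries. Cav2, the partner of Cav1, was at 42.6 against 23.9 CPM in LTS and 27.5 against 19.4 CPM in control, and Ptrf, the caveola coat protein cavin 1, at 108 against 69.4 CPM and 91.6 against 68.9 CPM. Of 4 measured galectins other than Lgals7, 0 passed, with Lgals1 at 2754 against 2249 CPM in LTS and 2616 against 2194 CPM in control. Among 3 measured genes of squamous epithelium, the junction protein gene Jup was higher, at 82.3 against 43.7 CPM in LTS and 87.8 against 40.2 CPM in control.

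The other genes of the retinoic acid pathway did not go together with Crabp2. Of 9 measured genes (19 listed), 0 were higher and 1 was lower, and the median log2 ratio was 0.05. The lower gene was Crabp1 (chr9:54764748-54773110, plus strand), the other cellular retinoic acid binding protein. It stood at 6.29 CPM in LTS members against 34.2 CPM in the others and at 23.4 against 49.1 CPM in control. The receptor genes Rarg and Rara were at 36.8 against 24.4 CPM and 26.8 against 18.1 CPM in LTS, and at 37.4 against 25.7 CPM and 28.6 against 20.2 CPM in control. Among low-cycling cells Crabp1 had a mean log2 ratio of -0.54, against -1.36 in all cells.

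Genes of amino acid supply and the integrated stress response were lower in members in all 3 comparisons of cells. This response raises the translation of Atf4, a transcription factor that in turn drives enzymes of serine, asparagine and cysteine supply. Of 13 measured genes (15 listed), 7 were lower and 0 higher, with a median log2 ratio of -0.65, -0.51 with depth weighting and -0.61 in low-cycling cells. Atf4 itself stood at 236 CPM in LTS members against 379 CPM in the others and at 237 against 365 CPM in control. The mitochondrial folate enzyme Mthfd2 was at 107 against 217 CPM in LTS and 102 against 211 CPM in control. The asparagine synthetase gene Asns was at 98.8 against 158 CPM and 108 against 172 CPM. Slc7a11, the cystine importer, was at 36.0 against 64.6 CPM in LTS and 29.1 against 49.5 CPM in control.

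Ribosome biogenesis, the making of ribosomes in the nucleolus, was also lower. This list was drawn up after the lower genes had been seen, so its count is a description of that choice. Of its 26 genes, 11 were lower and 0 higher, with a median log2 ratio of -0.59, -0.47 with depth weighting and -0.32 in low-cycling cells. Nolc1, a nucleolar chaperone, stood at 159 against 315 CPM in LTS and 190 against 371 CPM in control. Nhp2, a subunit of the snoRNA particles that modify ribosomal RNA, was at 219 against 427 CPM and 235 against 458 CPM. Myc, the transcription factor known to drive ribosome production, was at 25.5 against 49.2 CPM in LTS and 33.0 against 52.8 CPM in control.

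Ligands of the EGF receptor and Il11 were lower together. Of 9 measured genes (16 listed), Il11, Areg and Hbegf were lower and 0 higher, while the median over the list was -0.23. Il11, an IL-6 family cytokine, stood at 6.14 against 35.0 CPM in LTS and 10.1 against 33.9 CPM in control. Areg, which encodes amphiregulin, was at 7.08 against 22.8 CPM and 7.10 against 24.1 CPM, and Hbegf at 32.4 against 74.5 CPM in LTS and 32.7 against 82.8 CPM in control. Dusp6 and Spry4, feedback genes of ERK signalling, were at 109 against 97.2 CPM and 68.8 against 64.5 CPM in LTS. Fosl1, a Fos family factor, was lower, at 54.3 against 107 CPM in LTS and 54.5 against 113 CPM in control.

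Replication genes were lower, and mitosis genes turned with the way of comparing. Of 20 DNA synthesis genes, 5 were lower and 0 higher, with a median of -0.55. Rrm2, a subunit of ribonucleotide reductase, stood at 60.9 against 134 CPM in LTS and 82.2 against 149 CPM in control. Of 20 mitosis genes, 0 passed in either direction. Their median was -0.22 in all cells, 0.08 with depth weighting, 0.01 in low-cycling cells and -0.52 with cells thinned to 10000 UMIs. Low-cycling cells were chosen on the mitosis and DNA synthesis lists, so medians of those lists there follow in part from that choice. Interferon-induced genes had a median of -0.56 over 9 measured genes, of which Cxcl10 and Gbp3 passed, and -0.24 in low-cycling cells. The glycolysis and hypoxia list had a median of -0.25 over 16 measured genes, with Ndrg1 lower and 0 higher. The 13 mitochondrially encoded genes all had ratios above 0, with a median of 0.16 and none past 1.5-fold.

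**Figure D4:**
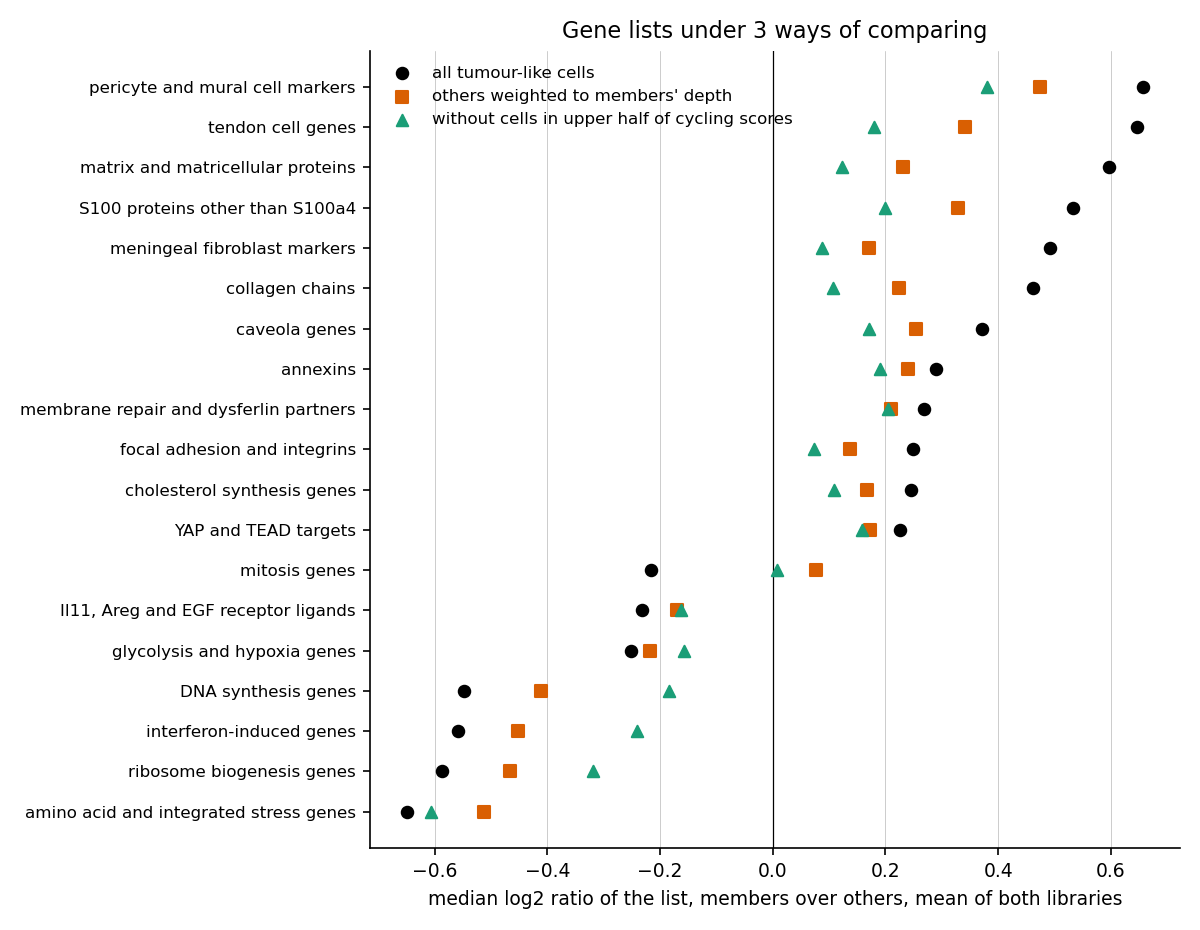
Median log2 ratio of members over the other tumour-like cells, averaged over both libraries, for the lists at least 0.2 from 0. Black circles are all tumour-like cells, and orange squares have the others weighted to the members' depth. Green triangles leave out cells in the upper 50% of the mitosis or DNA synthesis score. The green values of those lists follow in part from that choice. Matrix and collagen lists lie at 0.60 and 0.46 in black and at 0.12 and 0.11 in green, while the amino acid list stays between -0.65 and -0.51.

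Membership was also set against other gene programmes, each taken as the top 10% of its own list score over all tumour-like cells. In LTS, 15.7% of members and 11.5% of others were in the top 10% for collagen chains, and in control 13.8% and 8.80%. For the annexins the shares were 23.2% against 7.81% in LTS and 22.1% against 8.91% in control. For the amino acid list they were 0.541% against 11.8% in LTS and 1.23% against 10.7% in control. For ribosome biogenesis they were 0% of members, 0 of 185 cells, against 7.14% of others in LTS and 0.307% against 12.5% in control.

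Some markers of other cell types were higher in members. Of the microglia and macrophage markers 2 were measured and 1 was higher. This was Tmem119, a microglia marker that bone-forming cells also express, at 45.5 CPM in LTS members against 22.5 CPM in the others and at 57.0 against 21.9 CPM in control. C1qb, a defining microglia gene limited by the rule, was at 9.76 against 11.1 CPM in LTS and 30.2 against 29.4 CPM in control. Csf1r, another defining microglia gene, was at 6.61 against 5.54 CPM in LTS and 10.8 against 12.7 CPM in control. Of 10 pericyte markers 3 were measured, and Pdgfrb and Anpep were higher. Of 14 meningeal fibroblast markers 6 were measured and 3 were higher, with sums of 2263 CPM in LTS members and 2096 CPM in control members, against 1555 and 1410 CPM in the others. Their part in the results was not tested. Of the dissociation stress list, 11 genes were measured, Dusp1 being higher and Hsp90aa1 lower, with a median of 0.11.

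The remaining lists had the following calls, beside 2.17% of all tested genes higher and 3.05% lower. Of 12 focal adhesion genes Itgb5 and Tns1 were higher (median 0.25), of 7 membrane repair genes Utrn (0.27) and of 13 contractile genes Cnn2 (0.11), with 0 lower in each. Of 8 YAP and TEAD targets Cyr61 was higher and Wwc1 lower (0.23), and of 6 p53 targets Sesn1 was higher and Aen lower (0.05). None of 9 cholesterol synthesis genes (0.24), 10 TGF-beta targets (0.20), 21 nuclear oxidative phosphorylation genes (0.04) or 5 MHC class I genes (-0.09) passed. Of 6 glial identity genes Pdgfra was higher (-0.01), of 7 proteases and inhibitors Mmp3 and Plaur were lower (0.00), and of 18 stem and mesenchymal regulators Myc, Hmga1 and Fosl1 were lower (0.00).

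The same contrasts ran as gradients through all tumour-like cells. Over deciles of the score from lowest to highest, collagen chains summed to 960 CPM in the lowest and 2939 CPM in the highest decile of LTS, and to 1019 and 2793 CPM in control. Ribosome biogenesis genes summed to 10361 CPM in the lowest and 5398 CPM in the highest decile of LTS, and to 11265 and 6143 CPM in control. The amino acid list had 2498 CPM in the lowest and 980 CPM in the highest decile of LTS, and 2149 and 1015 CPM in control. Median depth went along with the score, at 51939 UMIs in the lowest and 32549 in the highest decile of LTS, and 24485 and 16163.5 in control. The part of depth in these gradients was not tested.

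**Figure D5:**
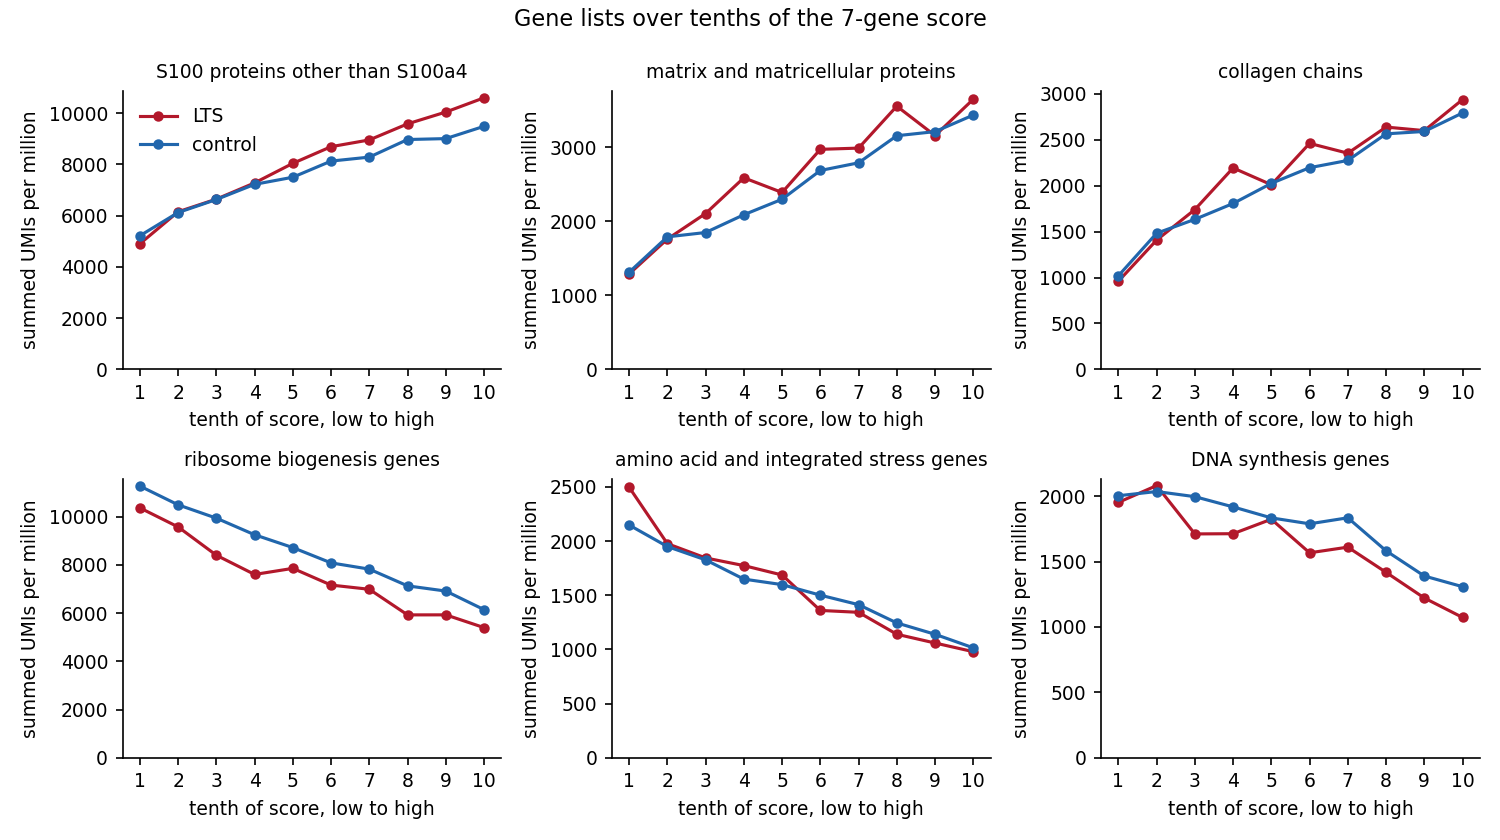
CPM summed over 6 gene lists in each decile of the 7-gene score, low to high, with LTS in red and control in blue. Deciles were made on the pooled score, the highest being the members. The upper 3 lists are higher and the lower 3 lower towards the right, with small reversals along the way and no jump at the highest decile.

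The genes nearest to the score were taken over all tumour-like cells. Spearman coefficients with the score, over tumour-like cells thinned to 10000 UMIs, were computed for 7843 genes, and genes were ranked by the weaker of both libraries. They were highest for S100a6 (0.522 in 1389 LTS cells and 0.499 in 3714 control cells), Anxa1 (0.491 and 0.443), Col3a1 (0.439 and 0.452), Fn1 (0.388 and 0.392) and Ptn (0.394 and 0.388). At the other end were Eif5a (-0.514 and -0.517), Mif (-0.435 and -0.412), Nhp2 (-0.399 and -0.418), Hspd1 (-0.395 and -0.425) and Ncl (-0.394 and -0.400). Cells of 1 library share its free RNA and its preparation, so these coefficients describe the cells only.

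The promoters of the higher and of the lower genes were searched for known short motifs. RefSeq promoters (GRCm38.p6, 250 bases before to 50 after each start) were matched by symbol for 107 of the 140 higher genes (143 promoters) and 146 of the 197 lower genes (177 promoters). Neither Scx nor Crabp2 was matched. CACGTG, the E-box known to bind Myc and its partners, was found in 7.69% of the promoters of higher genes and 15.8% of those of lower genes, against 10.7% of the promoters of all tested genes and 7.15% of all 32851 promoters in the table. TGATGCAA, a composite element known to bind Atf4 with C/EBP factors, was in 0% (0 of 143) and 2.82%, against 0.604% and 0.895%. GGAATG, known to bind TEAD factors, was in 17.5% and 12.4%, against 11.3% and 14.7%. TGANTCA, the AP-1 element, was in 6.99% and 5.65%, against 4.96% and 7.81%, and TGACGTCA, the cyclic AMP element, in 0.699% and 1.69%, against 3.52% and 1.79%. Both strands were searched, matches of different motifs do not contain each other, and a match is a description of the letters, not a site in use.

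The following 4 promoters are shown because they belong to called genes and hold at least 1 of these motifs; capitals mark every match of the 5 motifs. Slc25a33, a mitochondrial pyrimidine carrier (14.5 CPM in LTS members against 37.3 CPM in the others, and 17.9 against 41.0 CPM in control), held CACGTG once. Its promoter lies at chr4:149774218-149774517 on the minus strand. Slc7a11, the cystine importer described above, held TGATGCAA 2 times, once on each strand, at chr3:50443564-50443863 on the minus strand. Crabp1 held the same element once and GGAATG once, at chr9:54764498-54764797 on the plus strand. Srpx2, a higher gene, held TGANTCA once and CACGTG once, at chrX:133908175-133908474 on the plus strand.
Slc25a33: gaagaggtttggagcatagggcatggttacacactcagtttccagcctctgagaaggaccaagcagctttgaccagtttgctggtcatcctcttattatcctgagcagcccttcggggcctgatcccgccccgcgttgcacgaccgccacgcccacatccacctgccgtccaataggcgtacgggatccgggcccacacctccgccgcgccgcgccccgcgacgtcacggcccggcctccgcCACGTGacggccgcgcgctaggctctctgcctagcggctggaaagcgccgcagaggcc
Slc7a11: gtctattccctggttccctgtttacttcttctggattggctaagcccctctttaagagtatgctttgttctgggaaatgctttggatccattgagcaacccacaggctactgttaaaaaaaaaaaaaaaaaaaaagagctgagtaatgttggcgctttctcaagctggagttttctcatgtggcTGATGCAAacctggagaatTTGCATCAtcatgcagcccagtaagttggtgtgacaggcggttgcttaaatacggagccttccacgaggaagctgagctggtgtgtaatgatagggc
Crabp1: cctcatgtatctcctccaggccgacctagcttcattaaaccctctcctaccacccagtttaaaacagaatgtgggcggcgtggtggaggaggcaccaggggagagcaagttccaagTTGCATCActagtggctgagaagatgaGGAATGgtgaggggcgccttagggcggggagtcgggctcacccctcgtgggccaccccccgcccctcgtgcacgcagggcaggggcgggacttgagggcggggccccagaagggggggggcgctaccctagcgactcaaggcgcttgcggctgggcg
Srpx2: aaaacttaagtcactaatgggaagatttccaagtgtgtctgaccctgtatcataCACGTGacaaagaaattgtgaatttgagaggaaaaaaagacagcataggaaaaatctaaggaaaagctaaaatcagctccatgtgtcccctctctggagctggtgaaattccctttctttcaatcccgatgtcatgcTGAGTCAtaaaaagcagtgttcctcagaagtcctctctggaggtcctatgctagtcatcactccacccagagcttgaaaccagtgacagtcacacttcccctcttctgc

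Few genes differed by 1.5-fold between members of the LTS and of the control library. Of 6512 genes measured in members, 3 (0.0461%) were at least 1.5-fold higher in LTS and 34 (0.522%) at least 1.5-fold lower. These counts moved with the choice of cells, to 39 higher and 99 lower with every cell thinned to 10000 UMIs and to 73 and 260 among cells of at least 20000 UMIs. In the others, which come from the same libraries, 2 of 6408 genes (0.0312%) were higher and 30 (0.468%) lower. The clearest was Pbld2 (chr10:63024315-63058813, plus strand), at 93.8 CPM in LTS members against 317 CPM in control members, a log2 ratio of -1.70, and at 192 CPM in the other LTS cells against 610 CPM in the other control cells, a log2 ratio of -1.64. It was also lower in members than in others of the same library. Snhg9, a non-coding RNA that hosts a small nucleolar RNA, stood at 32.6 CPM in LTS members against 107 CPM in control members and at 48.2 against 152 CPM in the others. Exoc1, an exocyst subunit, was at 82.8 against 193 CPM in members and 97.5 against 245 CPM in the others.

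Other library differences included genes that are abundant in free RNA or known from other cells. Ttr, the transthyretin of choroid plexus, was 1 of the 3 genes higher in LTS members, at 26.8 CPM against 3.37 CPM in control members. Its level in barcodes of 1 to 100 UMIs, taken as free RNA, was 1257 CPM in LTS and 71.8 CPM in control. Ccl5 and Cdh10, the remaining genes of those 3, were named after their values were seen. Ccl5 stood at 31.8 CPM in LTS members against 15.3 CPM in control members, but at 32.5 against 31.3 CPM in the others. Cdh10 was at 25.5 against 14.9 CPM in members and 15.1 against 11.2 CPM in the others. The microglia genes C1qb, C1qa and Ctss were lower in LTS members, and so was Apoe. C1qb was at 9.76 against 30.2 CPM in members and 11.1 against 29.4 CPM in the others. The free RNA held 422 CPM of C1qb in LTS and 364 CPM in control. The rule limits C1qa, C1qb and C1qc together to 10 UMIs per cell at any depth. Median depth was 32549 UMIs in LTS members and 16163.5 in control members. The parts of this limit and of free RNA in these differences were not tested.

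Crabp1 stood at 6.29 CPM in LTS members and 23.4 CPM in control members, a log2 ratio of -1.33, and at 34.2 CPM in the other LTS cells and 49.1 CPM in the other control cells, a log2 ratio of -0.46. Bgn, the matrix proteoglycan biglycan, stood at 76.6 CPM in LTS members and 119 CPM in control members, and at 65.4 CPM in the other LTS cells and 62.2 CPM in the other control cells. Whether the difference between LTS and control itself differs between members and others was not tested for either gene.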

How the data were processed

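Transcripts were counted in single cells of 2 libraries, LTS and control, by 3' version 3 droplet chemistry. The values are UMI counts per gene and barcode as the authors deposited them, without normalization, which per the file headers come from Cell Ranger 4 and per the submitters' processing notes use build mm10. Each matrix listed 6794880 barcodes and 27998 genes, so it was unfiltered, and it held 149413534 UMIs in LTS and 165796852 in control. Coordinates of genes are those of GENCODE M21 (mm10).

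UMIs were summed per library over members and others and scaled to CPM, relative to all UMIs of that group of cells. Log2 ratios used a pseudocount of 5 CPM. A gene was tested with at least 20 CPM in either group in both libraries, and called at 1.5-fold in the same direction in both. Ratios carry exact conditional 95% intervals, shares exact binomial (Clopper-Pearson) ones. These treat UMIs as independent. No doublet caller was run, and leaving out the largest 5% of cells is 1 of the alternatives. The calling steps were also run on simulated sums with set changes. These sums held no variation between cells and no choice of members by score, so they do not test the calls against either. Python 3.11.15, numpy 2.4.6, scipy 1.17.1, pandas 2.3.3 and matplotlib 3.10.9 were used.

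The members, the 38 gene lists and the rules were chosen with earlier results of these data known, and 1 list (ribosome biogenesis) after the lower genes were seen. Named genes are the 15 higher and 10 lower genes with the largest smaller ratio of both libraries and at least 50 CPM, the 10 highest and 10 lowest of LTS over control, the 2 largest and 1 smallest of each list, and the 10 nearest to the score. Some of these genes are not reported here. Further genes were picked after their values were seen. Alternatives covered thinning to 10000 UMIs, other limits of the score, depth weighting, cycling cells, scaling, pseudocount and low-value filter. The endothelial limit without Flt1 and the scores with 1 gene held out were added after seeing the data.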

Additional observations from a re-analysis of the deposited data

Results flagged for a closer look

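Frg1, a nuclear protein tied to RNA processing, went opposite ways in the libraries: the ratio of members over others was 0.890 in LTS and 1.14 in control. Lgals3, the galectin 3 gene, had a ratio of LTS over control of 0.926 in members and 1.05 in the others. The class I gene H2-D1 had 0.921 in members and 1.03 in the others. The mitochondrial gene mt-Cytb had 0.968 in members and 1.01 in the others. All 4 were singled out because the intervals of counting error lay on opposite sides of 1, the differences are small, and the difference between the groups was not tested.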

How the results depend on the processing

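No paired analysis was possible because there was 1 library per group and no replicate numbers. The log2 ratio of the members' share, LTS over control, was 0.60, and it was 0.25 with cells thinned to 10000 UMIs, 1.58 with at least 20000 UMIs, 0.26 without Flt1 in the endothelial limit (chosen after seeing the data) and -0.0013 when members were the top 10% within each library, as that choice fixes. Genes higher in members numbered 140, and 69 with thinned cells, 76 with cells of equal weight, 9 in low-cycling cells and 28 with depth weighting. Genes lower in members numbered 197, and 299 with the top 5%, 26 in low-cycling cells and 69 with depth weighting. The 3 genes higher in LTS members became 39 with thinning, 22 with the top 5%, 1 with the top 20%, 5 within each library, 73 with at least 20000 UMIs, 8 without Ahnak and S100a4 in the score, 11 on split UMIs, 8 at a pseudocount of 1 CPM, 15 with no CPM minimum, 20 in low-cycling cells and 5 without Flt1. The 34 lower ones became 99 with thinning, 65 with the top 5%, 260 with at least 20000 UMIs, 62 on split UMIs, 71 with no CPM minimum and 65 in low-cycling cells. The lists below all genes numbered 7, and 11 with no CPM minimum, where the tendon median turned to -0.024. The cause was not tested; sums over fewer cells hold fewer counts. List medians at least 0.2 from 0 kept their direction in 300 of 303 values. Depth limits genes under 20 CPM, and a member's score rests on few UMIs per gene.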
